A study of Caenorhabditis elegans with 2 samples.

Results

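Small nucleolar RNA (snoRNA) genes were examined as places where GFP-tagged XBP-1 was found on the chromatin of Caenorhabditis elegans larvae, together with the protein-coding genes whose introns hold some of them. The members were all genes of the snoRNA biotype on the nuclear chromosomes of the WBcel235 annotation, 346 of 46890 nuclear genes, each widened by 200 bp on either side. Of these, 178 lay wholly inside an intron of a protein-coding gene on either strand, and 168 lay elsewhere. The genes themselves were 54 to 344 bp long with a median of 130 bp. A member was counted when the summit of a peak, the single point the deposited list gives for it, fell inside the widened window.

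The animals were whole hermaphrodite L1 larvae of strain OP506, genotype unc-119(tm4063) III; wgIs506, collected 6 h after synchronization by bleaching and starvation. The wgIs506 transgene makes XBP-1 with a C-terminal GFP-FLAG tag, and chromatin was immunoprecipitated with an antibody to GFP, although 1 label field names xbp-1 as the antibody. Both libraries are biological replicates of 1 group and 1 transgenic line, so no condition is compared, and a peak from whole larvae does not show in which cells it arose. No control immunoprecipitation was analysed here, and depth is unknown because the files hold regions only. The lists held 3641 thresholded peaks, which were also the 3641 strongest regions of the pooled list, and longer relaxed lists of 26088 regions for the pooled reads, 30000 for replicate 1 and 28535 for replicate 2. Of the thresholded peaks, 2184 had the same width of 376 bp, so the width was not read as an extent of binding.

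XBP-1 is a bZIP transcription factor that responds to unfolded proteins in the endoplasmic reticulum, where IRE-1 senses them and splices the xbp-1 mRNA. SnoRNAs guide the chemical modification of ribosomal RNA in the nucleolus: box C/D snoRNAs guide 2′-O-methylation through the methyltransferase fibrillarin, and box H/ACA snoRNAs guide pseudouridylation through dyskerin. Those inside introns of a gene on the same strand can be cut out of the spliced host transcript, while others are transcribed from a promoter of their own. Transfer RNA (tRNA) genes are read by RNA polymerase III from an A box and a B box that lie within the gene, and small nuclear RNA (snRNA) genes are read from a short element upstream of the gene.

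Upstream of some members with summits, 1 of 2 letter patterns recurs. Upstream stretches of 6 of the strongest members are printed from 100 bases before the snoRNA to its first 10 bases, 5′ to 3′ on the snoRNA strand, from the RefSeq genome of WBcel235. Capitals mark AACNCG followed, after 5 bases, by TGTC, called the upstream element here.
ZK20.9: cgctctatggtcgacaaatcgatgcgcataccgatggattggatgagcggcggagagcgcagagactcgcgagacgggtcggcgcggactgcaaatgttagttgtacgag
Y53F4B.47: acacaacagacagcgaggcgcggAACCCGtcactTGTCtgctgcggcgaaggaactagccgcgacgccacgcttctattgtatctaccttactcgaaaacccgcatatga
M7.15: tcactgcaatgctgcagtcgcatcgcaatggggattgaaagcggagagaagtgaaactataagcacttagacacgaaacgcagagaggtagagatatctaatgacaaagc
F09G2.14: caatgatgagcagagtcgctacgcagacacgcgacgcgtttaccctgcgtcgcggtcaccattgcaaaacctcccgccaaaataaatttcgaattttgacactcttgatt
ZK994.7: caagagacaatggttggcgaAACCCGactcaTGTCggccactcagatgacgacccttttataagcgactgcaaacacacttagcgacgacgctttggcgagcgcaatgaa
smy-2: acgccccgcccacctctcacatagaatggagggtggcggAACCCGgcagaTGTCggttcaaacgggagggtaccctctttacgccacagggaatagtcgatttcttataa
The stretches are chrII:11635125-11635234 (plus strand) for ZK20.9, chrII:15025884-15025993 (minus) for Y53F4B.47, chrIV:11083047-11083156 (plus) for M7.15, chrV:7196571-7196680 (minus) for F09G2.14, chrV:8500479-8500588 (plus) for ZK994.7 and chrIV:9511457-9511566 (minus) for smy-2. In this set, Y53F4B.47, ZK994.7 and smy-2 carried the element, and the other members did not.

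The second pattern is a tRNA-like pair: an A box followed, 15 to 75 bases on, by a B box with the letters GTTCNANNC. Further members, chosen for display after their values were seen because they were among the best-ranked with this pair, are printed in the same way with both boxes in capitals. They show where the pair begins, upstream of the snoRNA; in Y38F2AR.14 the B box begins 5 bp upstream and runs into it.
Y38F2AR.14: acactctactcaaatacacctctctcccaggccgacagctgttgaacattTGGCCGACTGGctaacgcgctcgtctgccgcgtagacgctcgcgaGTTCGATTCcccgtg
F12F6.11: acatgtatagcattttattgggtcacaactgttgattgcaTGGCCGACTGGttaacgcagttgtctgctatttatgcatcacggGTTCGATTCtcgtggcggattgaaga
M106.6: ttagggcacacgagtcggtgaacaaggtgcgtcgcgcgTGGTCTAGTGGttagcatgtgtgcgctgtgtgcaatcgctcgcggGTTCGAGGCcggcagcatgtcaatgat
These stretches are chrIV:2408626-2408735 (minus strand), chrIV:11549855-11549964 (minus) and chrII:10840217-10840326 (plus). No annotated tRNA or snRNA gene lay within 200 bp of any of the 346 members.

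A thresholded summit lay within 200 bp of 85 of the 346 snoRNA genes, 24.6% (95% Wilson interval 20.3 to 29.4%), against 1.90% of 189191 genome windows of 530 bp, the width of a median member with its flanks. All nuclear genes, widened in the same way, held one in 7.03%. Intervals here cover counting error over genes only, since neighbouring genes are not independent of each other. Inside introns 39 of 178 members had a summit, 21.9% (16.5 to 28.54%), against 1.20% of windows centred in a protein-coding intron. Elsewhere 46 of 168 members had one, 27.4% (21.2 to 34.6%), against 2.27% of the other windows. The intervals of intronic and other members overlap, and the difference between them was not tested. Outside introns, members that overlapped no protein-coding gene had a summit in 41 of 124 cases, 33.1% (25.4 to 41.7%), and those that overlapped one in 5 of 44, 11.4% (4.95 to 24.0%).

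The windows of all members cover 0.182% of the nuclear genome and held 85 distinct summits, 2.33% of the 3641, which is 12.8 times the share of bases. Most of these summits were not at annotated promoters of protein-coding genes, taken as 1000 bp upstream to 200 bp downstream of a transcript start. Such a promoter window held the strongest summit of 33 of the 85 members, 38.8% (29.2 to 49.5%), and 65.8% of all thresholded summits. For intronic members the share was 11 of 39, and for other members 22 of 46. Of the 1246 thresholded summits outside promoter windows, 51 lay at a snoRNA gene, 4.09% (3.13 to 5.34%).

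Both replicates held these summits. In the relaxed lists, 167 members had a summit in replicate 1 (48.3%, 43.0 to 53.5%), against 14.9% of genome windows, and 148 in replicate 2 (42.8%, 37.7 to 48%), against 14.4%. The pooled relaxed list held one for 160 members (46.2%, 41.1 to 51.5%), against 13.0% of windows. Of the 85 members with a thresholded summit, 84 had a summit in the relaxed list of each replicate. The exception, C54G4.16, had its thresholded summit 178 bp upstream at rank 3318 of 3641. The thresholded list was made from both replicates, so the count of 84 is a description and not an independent check. Over the 83 distinct summits present in both replicates, signal values correlated with a Spearman rho of 0.848, given as a description, since these sites were selected on the reads of both replicates together. Summit positions in the replicates differed by a median of 15 bp, and by no more than 20 bp at 48 of the 83.

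**Figure D1:**
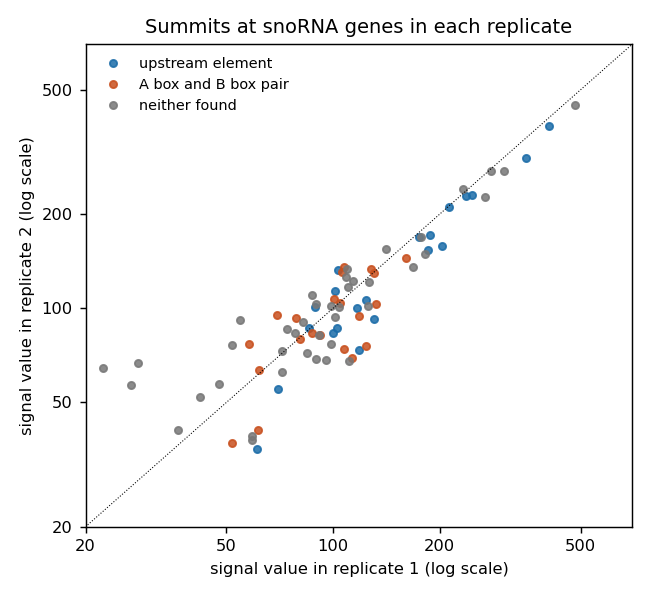
Signal value of each distinct summit at a snoRNA gene in replicate 1 (x axis, log scale) and replicate 2 (y axis, log scale), in the authors' unstated unit, with 1 point per summit coloured by the upstream pattern of the snoRNA gene. The 83 points follow the diagonal with a Spearman rho of 0.848, and a few of the weakest lie further from it.

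Ranked by signal value within the thresholded list, the snoRNA summits ran from rank 71 to rank 3635 with a median of 1317, against 1821 for the whole list. Of the 100 strongest peaks 1, and of the 500 strongest 10, lay at a snoRNA gene, and 66 of the 85 distinct summits had a rank of 1820 or better, the upper part of the list. Signal values, assigned by the authors' caller and used for order within 1 list, ran from 73.4 to 925 with a median of 195, against 148 over all peaks. So they were above the middle of the list but mostly not among its strongest peaks.

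The best-ranked summit belonged to ZK20.9, a member outside introns, at rank 71. Its signal value was 481 in replicate 1 and 447 in replicate 2, and its summit lay 78 bp past the first base, inside the snoRNA. Unlike most members with a summit, it therefore had no upstream summit. Y53F4B.47, next at rank 103, had 407 and 383 in replicates 1 and 2, with its summit 75 bp upstream of the snoRNA and in the promoter window of cmtr-1, which encodes an mRNA cap methyltransferase. F59C6.15 (rank 163) had 349 and 303, with its summit in the promoter window of F59C6.18. M7.15 (rank 208) had 305 and 275, with its summit in the promoter windows of klc-1 and let-70. F09G2.14, the longest member at 344 bp, had 280 and 275 at rank 229, in the promoter windows of F09G2.2 and attf-2. Each of these had its summit upstream, at 56, 69 and 84 bp, and the replicates placed it within 20 bp of each other.

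Further members outside introns with strong summits were F39B2.14 (rank 299), D2021.6 (rank 317), F25H2.15 (524), T26A8.6 (585), C36E8.11 (617), T23G11.12 (691) and F12F6.11 (878). F39B2.14 overlaps a protein-coding exon, and its summit lay in the promoter windows of rps-26 and tmem-107. The summit of D2021.6 lay in the promoter window of sdha-1, which encodes a succinate dehydrogenase subunit. Those of C36E8.11 and T23G11.12 lay in the promoter windows of tif-1A and T23G11.11, in that order. ZK643.9 (979), T02E1.9 (990, in the promoter window of T02E1.2), K07C10.2 (1000) and C46C2.8 (1005) followed. F25H2.15 was the only member with 2 thresholded summits. C51F7.4 and the intronic C51F7.3 shared 1 summit, at rank 1030, and F30H5.4 came next at 1065. The summit of K07C10.2 lay 135 bp past its first base and thus downstream of this 87-bp snoRNA.

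Among intronic members the best-ranked was ZK994.7, a 67-bp snoRNA in intron 17 of pxn-1, a peroxidasin gene. Its signal value was 247 in replicate 1 and 230 in replicate 2 at rank 313, with the summit 48 bp upstream of the snoRNA and 5642 bp past the nearest annotated protein-coding start, that of pxn-1. Within the gene, then, the summit stood at the snoRNA and not at the host's start. smy-2, in intron 6 of C33A12.3, had 237 and 228 at rank 315, and its summit also lay in a promoter window of its host. It is a member by its annotated biotype alone, and held neither the C box letters TGATGA nor ACA in its last 6 bases. C08D8.3, in intron 7 of C08D8.1, had 213 and 211 at rank 396 with the summit 48 bp upstream. C16D9.11, in intron 27 of rol-3, which encodes a receptor tyrosine kinase, had 188 and 172 at rank 518, with the summit 58 bp upstream. These intronic summits had similar values in both replicates.

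Other intronic members among the 30 best-ranked were Y37E3.20 in pcyt-2.1 (516, within the host's promoter window), F01D5.12 in F01D5.10 (584), ZK484.9 in haf-9 (711), D1046.6 in cfim-2 (748, also within the host's promoter window) and Y38F2AR.14 in Y38F2AR.12 (862). C02F5.15 in rfs-1 (996, in the promoter window of fbxl-1), M106.6 in mix-1 (1007), T06D8.11 in plpr-1 (1009) and C51F7.3 in frm-7 (1030) belong here too. pcyt-2.1 encodes an enzyme of phosphatidylethanolamine synthesis, haf-9 an ABC transporter, mix-1 a condensin subunit and frm-7 a FERM-domain protein. Over all 39 intronic members with a summit the median rank was 1411, and over the 46 others it was 1253.

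The summits stood upstream of the snoRNA and close to it. Measured from the first base of the snoRNA, with negative values upstream, the median position was -53 bp, with quartiles of -71 and -41 bp. Upstream summits were 79 of 85 (92.9%), while 39.2% of the bases in these windows are upstream, and 71 (83.5%) lay within 100 bp upstream, which is 19.6% of the bases. Intronic members had a median of -50 bp with 36 of 39 upstream, and other members -62 bp with 43 of 46 upstream. Leaving out intronic summits in any promoter window left 28, with a median of -49 bp and 26 upstream. Summits at or past the first base were those of ZK20.9 and K07C10.2, F07A11.15 (63 bp inside), ZK484.11 (92 bp inside), C05H8.3 (at base 0) and B0334.12 (100 bp past the first base, downstream of the snoRNA).

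**Figure D2:**
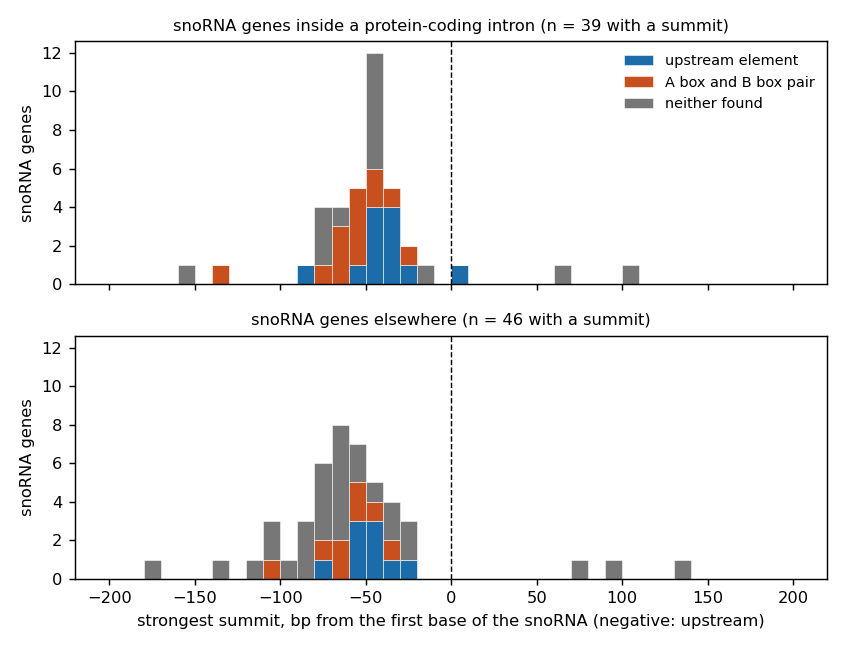
Position of the strongest thresholded summit of each snoRNA gene, in bp from its first base (x axis, negative upstream, 10-bp bins), as the number of genes (y axis), for genes inside a protein-coding intron (above, n = 39) and elsewhere (below, n = 46). Bars are coloured by the upstream pattern, and most summits stand within 100 bp upstream in both panels, with medians of -50 and -62 bp.

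Members without a thresholded summit had their pooled relaxed summits at more scattered positions. Of the 261 members without a thresholded summit, 75 had a pooled relaxed one (28.7%, 23.6 to 34.5%), at a median of 14 bp past the first base, with 48% of them upstream and 32.0% within 100 bp upstream. The strongest of these were F55H12.9 (pooled rank 3644), F37A8.7 (3730), H04D03.5 in smrd-1 (3752), M03D4.78 (3761), C26C6.13 (3778) and W01C9.6 (3948), all just below the 3641 thresholded peaks. At the edge of the 200 bp window, the members whose nearest thresholded summit lay just inside were C54G4.16 (178 bp) and C02F5.15 (152 bp). Just outside were W06H8.17 (209 bp, a peak of rank 173), C26C6.13 (223 bp, rank 1294) and F54E7.10 (248 bp, rank 48).

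The 2 upstream patterns were counted over all members, from 150 bases before the snoRNA to 20 bases inside it, on its strand. The letters were read from the upstream sequences of members with summits after these were known, so the shares below are a description, and a match is not a binding site. The upstream element was found at 35 of 346 members (10.1%), on the opposite strand at 2, in 0.0751% of the same stretches at protein-coding genes and in 0.144% of genome windows of 170 bp. The A and B box pair was found at 28 members (8.09%), on the opposite strand at 1, at 0.0851% of protein-coding genes and in 0.197% of genome windows. No member held both. The B box letters alone stood upstream of 40 members (11.6%), against 3.08% of genome windows.

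Each pattern kept a narrow range of positions at most members. The upstream element began at a median of -59 bp with quartiles of -61 and -58 bp over all 35 members. The A box began at a median of -57.5 bp and the B box at -14 bp over all 28, with a median of 33 bases between the boxes. A thresholded summit lay at 21 of the 35 members with the upstream element, 60.0% (43.6 to 74.4%), at 21 of the 28 with the box pair, 75% (56.6 to 87.3%), and at 43 of the 283 with neither, 15.2% (11.5 to 19.8%). Members with a pattern thus made up 42 of the 85 with a summit and 21 of the 261 without. Because the letters were read from members with summits, part of this difference is built in.

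**Figure D3:**
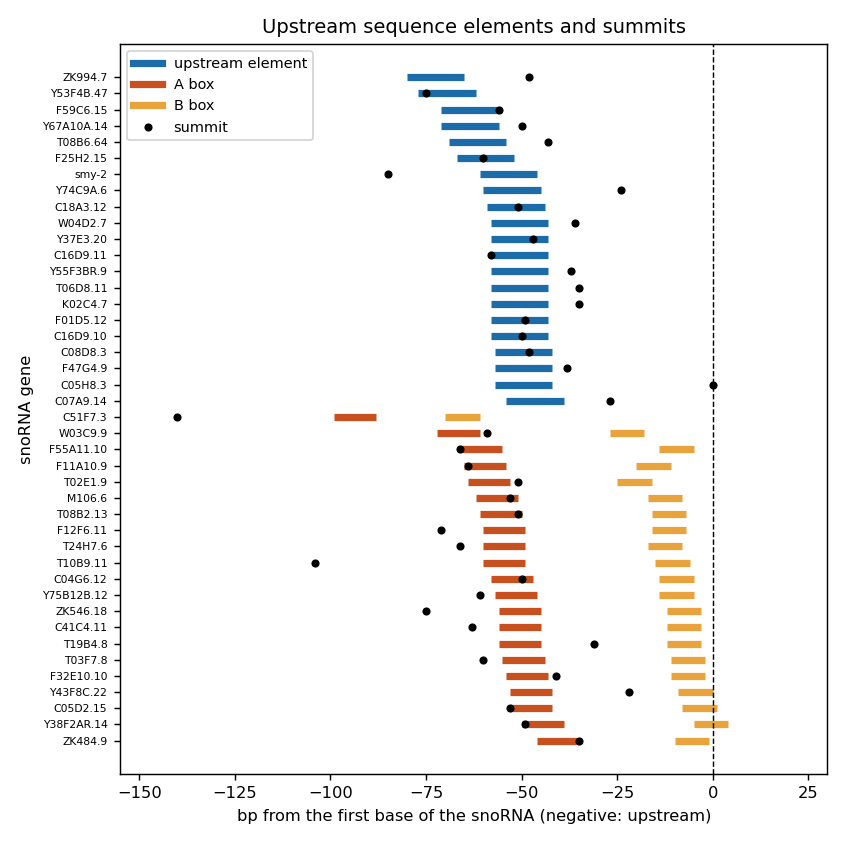
Upstream patterns and summits of the 42 snoRNA genes (y axis, 1 row each) that have both a pattern and a thresholded summit, in bp from the first base of the snoRNA (x axis, negative upstream). Bars mark the upstream element, the A box and the B box, and dots mark summits, which stand near the element in the upper rows and mostly at or before the A box in the lower ones.

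Measured from the first base of the snoRNA, the median summit position was -48 bp with the upstream element and -59 bp with the box pair. Between replicates, summit positions differed by a median of 15 bp. Summits were also placed relative to each pattern, from a reference point that differs between the patterns. With the upstream element the summit lay a median of 12 bp past the centre of the element, towards the snoRNA (quartiles 1 and 16 bp, n = 21). With the box pair it lay a median of 25.5 bp before the midpoint of the pair, away from the snoRNA (quartiles -31.5 and -13.5 bp, n = 21), and all 21 summits were upstream of the snoRNA. Median ranks were 1069 with the upstream element, 1411 with the box pair and 1428 with neither. The 10 members among the 500 strongest peaks had the upstream element in 5 cases and neither pattern in the other 5.

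Inside introns, 12 of 18 members with the upstream element, 13 of 17 with the box pair and 14 of 143 with neither (9.79%, 5.92 to 15.8%) had a thresholded summit. Elsewhere the counts were 9 of 17, 8 of 11 and 29 of 140 (20.7%, 14.8 to 28.2%). Members with neither pattern were therefore still above the 1.20% of intronic and 2.27% of other genome windows. Among the 21 members with a pattern but no thresholded summit, 8 had a pooled relaxed one, H04D03.5 among them.

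Short snoRNA genes held summits most often. Of the 73 members up to 90 bp long, 42 had a thresholded summit (57.5%, 46.1 to 68.2%), while longer ones had one in 43 of 273 cases (15.8%, 11.9 to 20.5%). Either pattern was found at 27 of the 73 short and 36 of the 273 longer members (37.0% and 13.2%). Among members with neither pattern the counts were 16 of 46 short (34.8%, 22.7 to 49.2%) and 27 of 237 longer ones (11.4%, 7.95 to 16.1%). Members that hold both the C box letters TGATGA and the D box letters CTGA, as box C/D snoRNAs do, had a summit in 16 of 33 cases (48.5%, 32.5 to 64.8%). Members with ACA in their last 6 bases, as H/ACA snoRNAs have near their 3′ end, had one in 17 of 80 (21.3%, 13.7 to 31.4%), and members of neither class in 53 of 237. These classes rest on short letter strings alone and are approximate.

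Summits were found on every chromosome. Members on chromosome V had one in 19 of 55 cases (34.5%, 23.4 to 47.7%), on II in 20 of 71, on IV in 16 of 59 and on I in 19 of 74. Lower shares stood on III, with 8 of 54 (14.8%, 7.70 to 26.6%), and on X, with 3 of 33 (9.09%, 3.14 to 23.6%). Another annotated non-coding RNA gene of the ncRNA biotype lay within the windows of 59 members, of which 27 had a summit (45.8%, 33.7 to 58.3%), against 58 of the 287 without such a neighbour (20.2%, 16.0 to 25.2%). A summit between such genes cannot be assigned to 1 of them from these files. With neither pattern, the counts were 12 of 40 beside an ncRNA gene and 31 of 243 without.

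snRNA and tRNA genes were counted in the same way for comparison. snoRNA genes had a thresholded summit in 24.6% of cases, snRNA genes in 24 of 129 (18.6%, 12.8 to 26.2%) and tRNA genes in 195 of 612 (31.9%, 28.3 to 35.7%). The median summit position was -53 bp at snoRNA genes, -37.5 bp at snRNA genes and -24 bp at tRNA genes. The upstream element stood at 10.1% of snoRNA genes and at 30 of 129 snRNA genes (23.3%), starting at the same median of -59 bp in both. The A and B box pair began upstream of 28 snoRNA genes and of 0 snRNA genes, while 563 of 612 tRNA genes (92.0%) held it inside the gene. Carrying the upstream element, 21 of 35 snoRNA genes and 10 of 30 snRNA genes had a summit, and lacking it, 14 of 99 snRNA genes did. None of these differences between gene classes was tested.

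**Figure D4:**
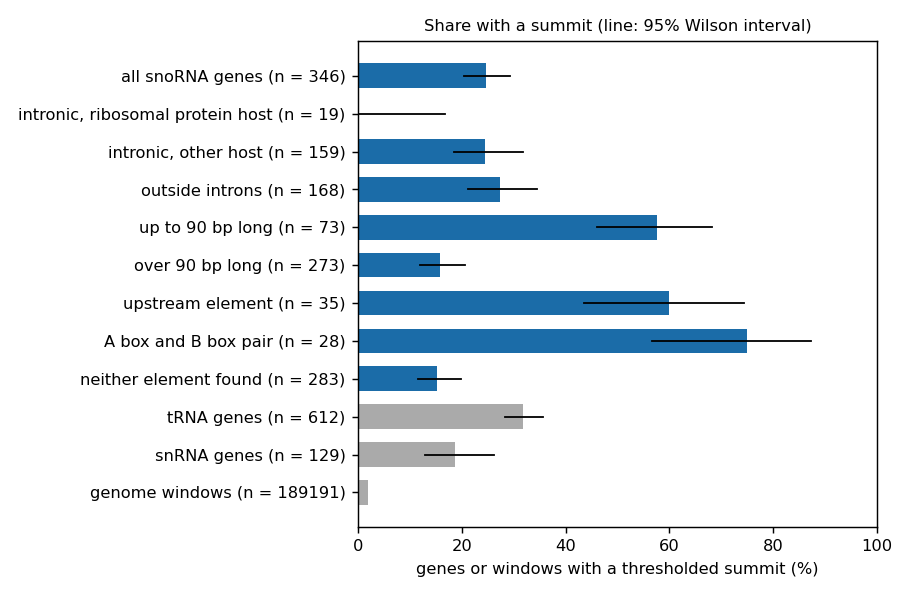
Percent of genes or genome windows with a thresholded summit (x axis) for snoRNA genes grouped by place, length and upstream pattern (blue) and for tRNA genes, snRNA genes and 530-bp genome windows (grey), with 95% Wilson intervals as lines. Members with the upstream element (60.0%) or the A and B box pair (75%) stand highest, and the 19 in ribosomal protein genes are at 0. The patterns were read from members with summits, so their high shares are partly built in.

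The intronic members lay in introns of 159 genes on either strand, all called hosts here. Of these, 78 had a thresholded summit in their own promoter window (49.1%, 41.4 to 56.8%), against 15.5% of 19973 protein-coding genes. The counts were 66 of 131 for hosts on the strand of the snoRNA (50.4%) and 12 of 28 for hosts on the opposite strand (42.9%). Promoter summits were also counted by whether a snoRNA of the host had a summit. Of the 39 hosts with a snoRNA that had a summit, 14 also had a promoter summit (35.9%, 22.7 to 51.6%), and at 7 of these 14 the snoRNA's own summit lay in that promoter window. It was the host's strongest promoter summit at 6, while din-1 had a stronger one at rank 405 beside that of F07A11.15 at rank 1527. Of the 120 hosts whose snoRNAs had none, 64 had a promoter summit (53.3%, 44.4 to 62%). The intervals overlap, both include the 49.1% of all hosts, and the difference was not tested.

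Hosts that encode ribosomal proteins, taken by names beginning rpl-, rps- or rla-, were counted by themselves. A ribosomal protein gene under another name is counted below among hosts of other kinds. All 13 ribosomal protein hosts had a promoter summit, with ranks from 21 to 1887 and a median of 337, while 0 of their 19 snoRNAs had a thresholded summit, which allows a share of up to 15.8%. None of these 19 carried either upstream pattern, and 5 had a pooled relaxed summit, the best at rank 12881. All 19 lay on the strand of their host. Same-strand intronic members with neither pattern, these 19 included, had a thresholded summit in 10 of 126 cases (7.94%, 4.37 to 14.0%). That share is below the limit of 15.8%, so 0 of 19 does not set these members apart from that group. Ribosomal protein genes without a snoRNA had a promoter summit in 58 of 68 cases (85.3%, 75 to 91.8%). Hosts of other kinds had one in 65 of 146 cases (44.5%, 36.7 to 52.6%), and 39 of the 159 intronic members in them had a summit (24.5%, 18.5 to 31.8%). A pattern was found at 35 of these 159.

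Hosts with several snoRNAs were counted too, but they are not a separate set. They include the ribosomal protein hosts rpl-6, rpl-7A, rpl-15, rps-12 and rps-29 counted above. Of 17 such hosts, 16 had a promoter summit, the exception being air-1, an Aurora kinase gene. Of their 38 snoRNAs, 1 had a thresholded summit, C27H5.9, which lies on the strand opposite to its host pdl-1. nol-56, which encodes a core protein of box C/D particles, held 4 snoRNAs, none with a summit, and had a promoter summit at rank 306. top-2, for topoisomerase II, held 3 in neighbouring positions and had a promoter summit at rank 271, and rpl-6, for a large-subunit ribosomal protein, held 3 with a promoter summit at rank 327. Hosts of 2 snoRNAs included cdc-48.1 (promoter rank 14), an ATPase that extracts proteins from membranes and complexes, Y37E3.8 (1548) and akir-1 (1661). eef-1G, an elongation factor subunit, had its promoter summit at rank 158, and rps-12 at rank 48, which is the peak 248 bp from the snoRNA F54E7.10.

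**Figure D5:**
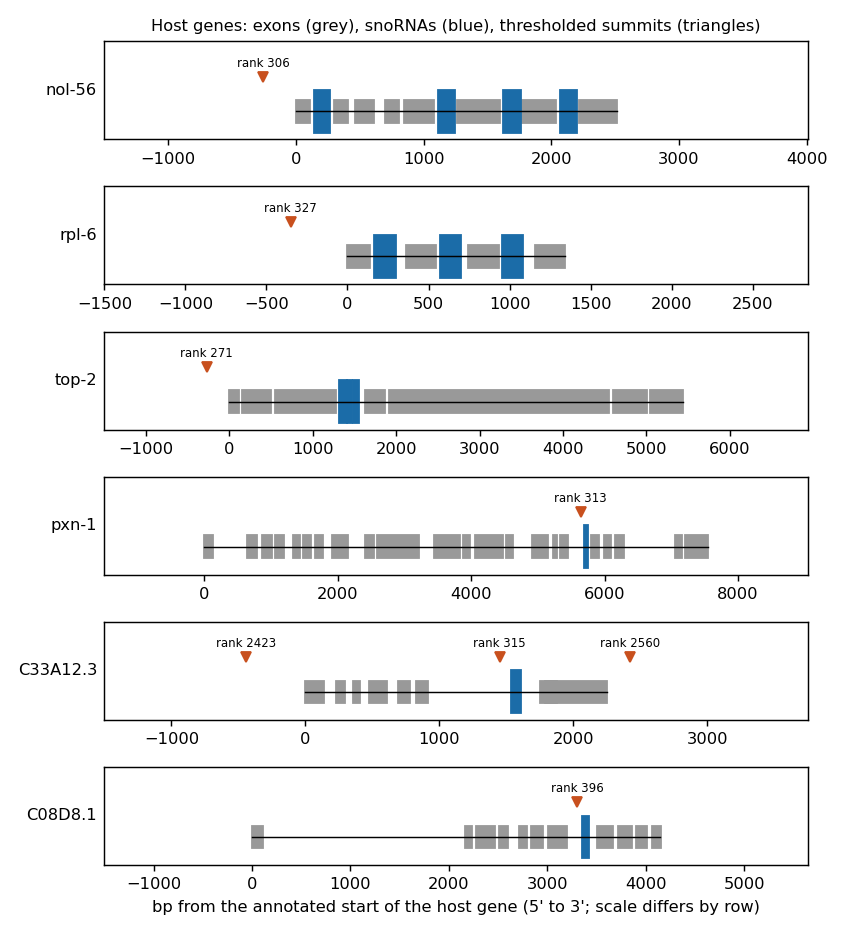
Host genes drawn 5′ to 3′ in bp from their annotated start (x axis, scale differs by row), with exons in grey, snoRNAs in blue and thresholded summits as triangles with their rank. In the 3 hosts with the most snoRNAs (nol-56, rpl-6, top-2) the only summit is before the gene, and in the hosts of the 3 best-ranked intronic members (pxn-1, C33A12.3, C08D8.1) a summit stands just upstream of the snoRNA.

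The intronic members were also counted by host strand and by intron order. With a host on the same strand, 28 of 150 had a summit (18.7%, 13.2 to 25.7%) and 24 (16.0%) carried a pattern. With hosts on the opposite strand only, 11 of 28 had a summit (39.3%, 23.6 to 57.6%) and 11 carried a pattern. First-intron members had a summit in 6 of 53 cases (11.3%, 5.29 to 22.6%) and those in later introns in 33 of 125 (26.4%, 19.5 to 34.7%). Both pairs of intervals overlap, and neither difference was tested. Same-strand members with neither pattern had one in 10 of 126 cases (7.94%, 4.37 to 14.0%), still above the 1.20% of intronic windows.

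Genes for core proteins of snoRNA particles and for ATPases that help assemble them were taken as a list of 10. The list was chosen with earlier results of these data known, and does not hold every protein that binds snoRNAs. All 10 genes of this core list had a promoter summit, against 15.5% of protein-coding genes, with ranks from 209 to 2756 and a median of 578.5. The box C/D proteins were fib-1 (fibrillarin, rank 209), nol-58 (286), nol-56 (306) and snu-13 (1035). For the box H/ACA proteins the ranks were 480 for nola-3, 677 for Y48A6B.3, 1634 for dkc-1 (dyskerin) and 2756 for garr-1. The ATPases ruvb-2 and ruvb-1, which help assemble these particles, had ranks 393 and 889. With a list of 10, the Wilson interval of the share starts at 72.2%.

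Words bound by XBP-1 and other transcription factors stood in the snoRNA windows at shares near those of the genome, apart from GAGAGAGA. TGACGTG, searched on both strands like the words below, stood in 3 of the 85 windows with a summit and in 3.18% of all 346, against 4.09% of genome windows of 530 bp. For TGACGTCA the count was 1 of 85, with 2.89% of all members and 2.91% of genome windows. The E-box CACGTG stood in 6 of 85, with 9.25% of all members and 8.38% of genome windows. CCACGT, which can overlap CACGTG, stood in 11 of 85, with 13.9% of all members and 13.7% of genome windows. GAGAGAGA, a simple repeat, stood in 8 of 85 windows and 6.94% of all members, against 3.39% of genome windows. A missing word says only that these letters are not in the window.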

How the data were processed

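The authors deposited relaxed region lists for each replicate and for the pooled reads, and a list thresholded by irreproducible discovery rate (IDR), per the lists of files that accompany the samples, on ce11, the same assembly as WBcel235. Each of the relaxed lists derives from immunoprecipitation alignments and 1 further file common to all of them. The aligner and the caller were not given in the sources used here. The values used were the deposited signal values, whose scale is not stated, so they only rank regions within 1 list. Lists on ce10 were not used.

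Gene positions came from Ensembl release 115, sequences from the RefSeq genome, and sequence-style names of 3 snoRNP genes were matched through RefSeq locus tags. A summit was the region start plus the deposited offset. Counting used Python 3.11.15 with pandas 2.3.3, numpy 2.4.6 and scipy 1.17.1, and was tested on simulated data. Shares have 95% Wilson intervals, and a count of 0 allows 3 counts of the total. No hypothesis test was run. Alternatives were other flanks, overlap, promoter windows, the stronger part of each list and each replicate left out by taking as many top regions of the other.

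The members, lists and patterns were chosen with earlier results of these data known. Named were the 30 best-ranked members with a summit, up to 6 strongest without one, hosts of the named intronic members, up to 8 hosts of several snoRNAs and all core snoRNP genes. Other members were named as exceptions or at the window's edge, after their values were seen.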

Additional observations from a re-analysis of the deposited data

How the results depend on the processing

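Counts depended mainly on the flank. With no flank, 5 members had a thresholded summit, 2 intronic and 3 other, since the summits stand beside the snoRNA. With summits in promoter windows left out, 52 members remained in the count, 28 intronic and 24 other. Leaving out members beside another annotated ncRNA gene, an alternative chosen after seeing the data, gave 23 intronic members. The median position was -59 bp with a flank of 500 bp. Taking the top regions of 1 replicate gave 82 to 89 members, 38 to 41 intronic and 44 to 48 other, 74 to 78 hosts, a median rank of 1280 to 1342 and a median position of -56 to -53 bp. Within 50 bp of the summit, TGACGTG stood at 1 member, TGACGTCA at 0, CACGTG at 3, CCACGT at 3 and the word GAGAGAGA at 3. The other alternatives stayed within 1.5 times the reported count. No paired analysis was possible because both replicates belong to 1 group. With no read totals, the depth behind a missing summit is unknown, so a member without one is not shown to be unbound.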
